A study of Caenorhabditis elegans with 3 samples.

Results

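The regions described here are 587 DPL-1 binding peaks that lay between genes of Caenorhabditis elegans and away from gene starts, out of 3270 peaks on the nuclear chromosomes (18.0%). A peak was taken when its summit, the position of highest signal, was inside no annotated gene, more than 500 bp from every protein-coding 5' end, and more than 100 bp from any tRNA, snoRNA, snRNA, miRNA or ncRNA gene of the WBcel235 (ce11) annotation. The rule used positions only, not signal, replicate ranks or sequence. These peaks are called distal intergenic peaks below. They were compared with the other 2683 nuclear peaks, above all with 1817 promoter peaks (summit at most 500 bp away from such a 5' end) and 400 distal intronic peaks (summit in an intron, more than 500 bp from a 5' end).

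DPL-1 belongs to the DP family, whose members bind DNA as partners of E2F proteins. With the retinoblastoma-like protein LIN-35 and the MuvB proteins DPL-1 forms the DREAM complex, which represses cell cycle and germline genes. E2F and DP proteins are known mainly for binding at promoters, close to transcription start sites. Most C. elegans genes lie close together, so that much of the sequence between genes is within reach of some promoter, and enhancers and unannotated transcription starts are known between genes as well.

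The samples were 3 biological replicates of 1 group, whole young adult hermaphrodites of strain YL507. This is a transgenic line that makes DPL-1 with GFP and FLAG fused to its C-terminus, so the profile is that of the tagged protein, summed over all tissues of the animal. Chromatin was immunoprecipitated with an antibody against GFP and sequenced (ChIP-seq). An untagged strain or an input sample was not analysed here, ChIP measures no expression, and the sequencing depth of the replicates is unknown.

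Sequences are shown for 8 distal intergenic peaks because they carry the motifs on which the results below turn. Each is the 101-base window centred on the summit, plus strand of ce11, read from the RefSeq genome. Capitals mark the E2F-like letters, TTNNCGC with C or G at each N, and the repeat GAGAGA. Matches on the opposite strand count too, and GAGAGA there reads TCTCTC. The windows nearest to cgh-1 (chrIII:7498546-7498646), F53E10.5 (chrV:2600685-2600785) and W02H3.3 (chrX:11094140-11094240) belong to the 3 strongest distal intergenic peaks with an E2F-like match. Those of K12H4.5 (chrIII:8043932-8044032), cbp-1 (chrIII:9765587-9765687) and jhdm-1 (chrIII:6453819-6453919) hold GAGAGA. The hcp-3 window (chrIII:9617089-9617189) holds both motifs, and the affl-2 window (chrIII:433111-433211) has the longest uninterrupted alternation of G and A inside any distal intergenic window, 36 bases. That run starts at the first base of the window, and its length beyond the window was not measured.
cgh-1: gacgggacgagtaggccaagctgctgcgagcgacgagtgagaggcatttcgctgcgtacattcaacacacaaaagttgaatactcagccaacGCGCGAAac
F53E10.5: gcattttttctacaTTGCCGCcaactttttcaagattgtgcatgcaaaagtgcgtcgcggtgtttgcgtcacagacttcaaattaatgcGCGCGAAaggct
W02H3.3: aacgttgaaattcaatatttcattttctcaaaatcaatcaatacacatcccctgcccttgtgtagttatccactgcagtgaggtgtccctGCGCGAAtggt
hcp-3: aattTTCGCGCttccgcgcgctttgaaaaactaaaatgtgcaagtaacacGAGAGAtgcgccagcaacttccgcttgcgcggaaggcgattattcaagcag
K12H4.5: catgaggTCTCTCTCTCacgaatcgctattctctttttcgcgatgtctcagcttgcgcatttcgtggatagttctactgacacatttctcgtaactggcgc
cbp-1: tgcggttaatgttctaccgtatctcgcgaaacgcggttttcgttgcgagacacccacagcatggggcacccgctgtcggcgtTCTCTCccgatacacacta
jhdm-1: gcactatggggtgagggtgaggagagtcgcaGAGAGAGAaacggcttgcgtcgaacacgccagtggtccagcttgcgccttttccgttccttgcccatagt
affl-2: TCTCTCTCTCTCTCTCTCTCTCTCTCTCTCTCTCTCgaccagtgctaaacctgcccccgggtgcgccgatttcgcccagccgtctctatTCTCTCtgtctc

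Distal intergenic peaks were on the whole weaker than the other peaks, but a few were among the strongest of the list. Their median signal, the strength that the authors gave each peak, was 70.7 (interquartile range 55.0 to 99.9, range 45.7 to 645), against 86.8 for the other nuclear peaks. Promoter peaks had a median signal of 97.5 and distal intronic peaks one of 66.5. Of the 587 distal intergenic peaks, 212 (36.1%) were in the stronger 50% of the nuclear list, against 53.0% of the other peaks. Among the 100 strongest of all peaks 5 were distal intergenic, and among the 500 strongest 38 were, both below their share of 18.0% of the nuclear list. The signal comes from a list made from all replicates together, so it has no replicate error of its own.

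The strongest distal intergenic peak lay between cgh-1, which encodes a DEAD-box RNA helicase of the germline, and C07H6.9 (III, 7498436 to 7498781). It was 764 bp upstream of the 5' end of cgh-1 and 152 bp from the 3' end of C07H6.9. Its signal was 645, and it ranked 116, 26 and 76 by signal in the lists of replicates 1, 2 and 3. A peak of almost the same strength lay 505 bp upstream of K12H4.5, between divergent genes (III, 8043835 to 8044130, signal 632, ranks 131, 28 and 79). The third was near F40E3.3, 1128 bp from its 5' end and 358 bp beyond its 3' end (signal 572, ranks 70, 56 and 60). All 3 peaks ranked among the first 131 in every replicate, with replicate 1 the lowest for each of them.

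The next peaks lay at unlike places. Near eel-1, the gene of a HECT-type ubiquitin ligase, a pair of peaks lay 580 and 810 bp upstream on chromosome IV, with signals of 487 and 283, the first in sequence with several copies in the genome. The first of the pair ranked 263, 168 and 65 in replicates 1, 2 and 3. The second ranked 1080, 152 and 108, so that replicate 1 stood apart. The peak near nlp-40, a neuropeptide gene, sat in a gap of only 646 bp where nlp-40 and rcor-1, a CoREST-like corepressor gene, point towards each other. It was 188 bp beyond the 3' end of nlp-40 and 5530 bp from its 5' end, with a signal of 463 and ranks of 66, 101 and 112. On chromosome V the strongest lay 1805 bp upstream of F53E10.5 (2600618 to 2600924, signal 412, ranks 103, 121 and 107) and had a pair of E2F-like matches. Chromosome II had its strongest 521 bp from Y54G11A.2 and 386 bp beyond the 3' end of hmg-1.1, which encodes an HMG-box chromatin protein (signal 388, ranks 67, 175 and 229).

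On chromosome X the peak near W02H3.3 was the strongest (11093920 to 11094369, signal 357, ranks 104, 137 and 288). It lay 3996 bp from the nearest protein-coding 5' end and 1483 bp from a tRNA gene. The peak near usp-4, named for a ubiquitin-specific protease, lay 670 bp upstream between divergent genes, the other being lin-45, the worm's Raf kinase. It had a signal of 355 and the most even ranks of the 12 strongest, 142, 142 and 148. Another X peak, between adm-2, an ADAM metalloprotease gene, and K02D3.1, was 6033 bp from the nearest 5' end (signal 313, ranks 79, 406 and 175). The X peak near T27A8.7 lay 182 bp beyond its 3' end (signal 288, ranks 77, 369 and 515). On all 3 X peaks replicate 1 gave the best rank, whereas the pair at eel-1 ranked lowest in replicate 1.

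**Figure D1:**
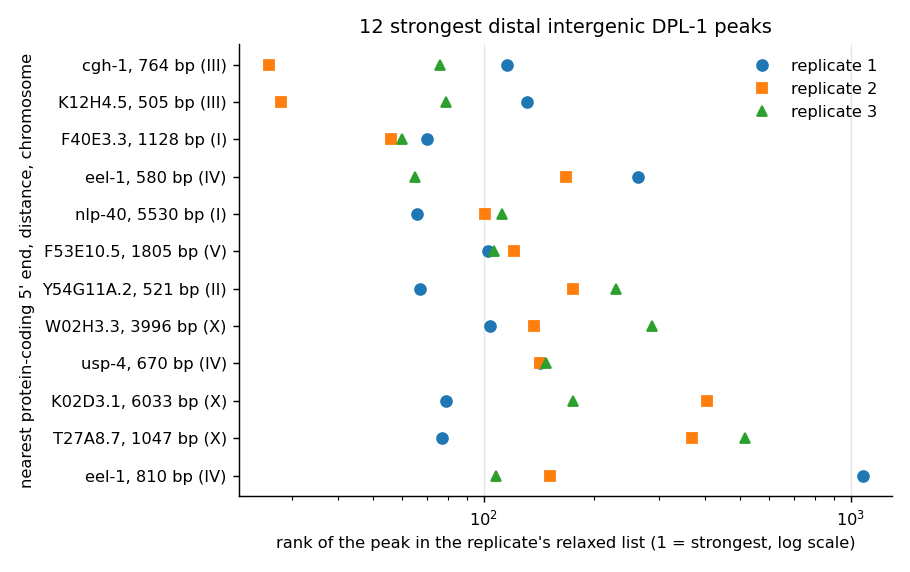
Ranks of the 12 strongest distal intergenic peaks in the 3 replicates' own lists, on a log axis with rank 1 the strongest peak of the replicate. Each row is 1 peak, named by the protein-coding gene with the nearest 5' end, its distance and its chromosome. The 12 peaks ranked between 26 and 515 in all replicates, apart from the weaker peak near eel-1, which ranked 1080 in replicate 1.

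The nearest protein-coding 5' end was a median of 1512 bp away (interquartile range 863 to 2741 bp). It lay more than 500 and up to 1000 bp from 184 peaks, 1000 to 2000 bp from 183, 2000 to 5000 bp from 171, and more than 5000 bp from 49. These counts were read against the length of genome that met the rule, 25.5 Mb or 25.4% of the nuclear genome. Over all of it there were 23.0 distal intergenic peaks per Mb, against 35.9 other peaks per Mb in the rest of the genome. The density was highest nearest to gene starts, 37.9 peaks per Mb at 500 to 1000 bp, 27.4 at 1000 to 2000 bp, 18.1 at 2000 to 5000 bp and 10.8 beyond 5000 bp. In the replicates' own lists of the same length, the densities at these distances were 35.7 ± 2.81, 27.2 ± 0.981, 18.4 ± 0.639 and 10.8 ± 1.43 peaks per Mb (SD, n = 3), and the replicate values of neighbouring distances did not overlap.

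Peaks nearest to gene starts were also the strongest, with a median signal of 77.0 at 500 to 1000 bp and of 67.1, 69.6 and 67.9 at the 3 larger distances. At the threshold itself there was no step. The 15 peaks at 501 to 520 bp had a median signal of 63.1 (45.9 to 632), and the 16 peaks just outside, at 481 to 500 bp, had one of 59.3 (45.8 to 262). The farthest peak from any 5' end was 28643 bp away, near sql-1, the gene of a golgin protein, but only 148 bp beyond the 3' end of that long gene and 87 bp from a pseudogene (signal 101, ranks 3274, 980 and 1664). The next were 13339 bp from irld-18 (signal 48.2, no peak within 100 bp in replicate 1, ranks 5194 and 6276 in replicates 2 and 3) and 11532 bp from K01F9.2 (signal 74.0, ranks 764 and 2099 in replicates 1 and 2, none in replicate 3). The last of these was 229 bp from the miRNA gene mir-80.

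Some of these peaks lay just beyond the 3' end of a gene. A 3' end lay within 200 bp of 81 of the 587 (13.8%), against 7.39% of the length that met the rule, and within 500 bp of 133 (22.7%). For 259 (44.1%) the nearest protein-coding gene end was a 3' end, at any distance. The rule keeps summits away from 5' ends but not from 3' ends, and the share of the genome with a 3' end nearest was not counted. The density within 200 bp of a 3' end was 43.0 peaks per Mb, against 25.2 at 200 to 500 bp, 20.8 at 500 to 1000 bp, 26.2 at 1000 to 2000 bp, 22.5 at 2000 to 5000 bp and 16.9 beyond 5000 bp. In the replicates' own lists it was 43.9 ± 8.12 within 200 bp, 29.9 ± 7.52 at 200 to 500 bp and 16.2 ± 2.85 beyond 5000 bp (SD, n = 3). Within 200 bp replicates 1, 2 and 3 had 37.7, 40.9 and 53.1 peaks per Mb, and at 200 to 500 bp they had 35.4, 21.3 and 33.0, so that replicate 1 had nearly the same density at both distances. The 81 peaks had a median signal of 64.5. Of them, 21 (25.9%) were in the top lists of all 3 replicates, against 30.3% of all distal intergenic peaks and 40.8% of all nuclear peaks. The smallest distances to a 3' end were 2 bp at R08D7.5, 6 bp at ssb-1 and 10 bp at clec-142, with signals of 50.7, 52.5 and 50.9, and all 3 lay in gaps of 7 to 127 bp between convergent genes. The share of sequence near a 3' end that also lies near the 5' end of another gene was not separated here.

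**Figure D2:**
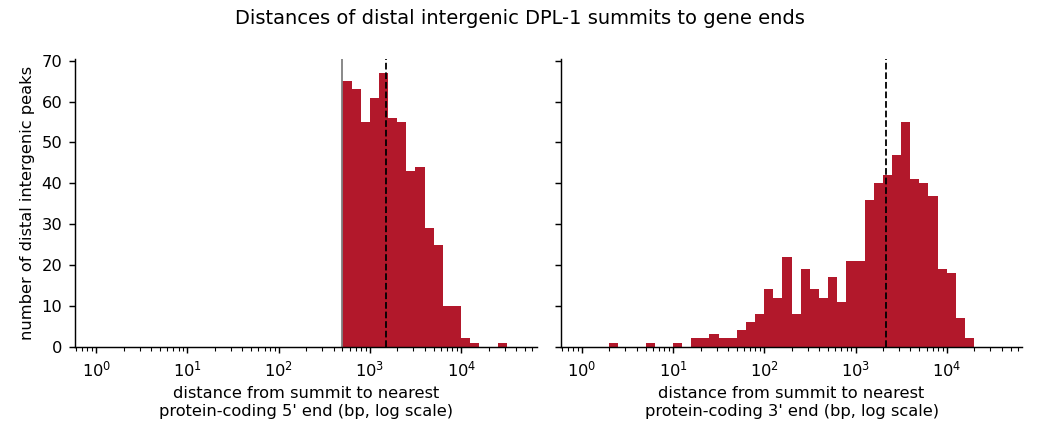
Number of distal intergenic peaks by distance of the summit to the nearest protein-coding 5' end (left) and 3' end (right), on log axes. The grey line is the 500 bp limit of the rule and the dashed lines are the medians, 1512 bp for 5' ends and 2154 bp for 3' ends; only the distances to 3' ends reach down to a few bp.

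The flanking protein-coding genes pointed the same way at 352 peaks (60.0%), away from each other at 184 (31.3%) and towards each other at 51 (8.69%). Of the genome length that met the rule, 54.1% lay between genes on the same strand, 33.0% between divergent and 12.8% between convergent genes. The gap between the flanking genes had a median of 4361 bp. Nearest to the peaks were the 5' ends of 539 different genes, and for 479 peaks the gene with the nearest 5' end was also the nearest that pointed away from the peak, so that the peak lay on its upstream side. The next peak of the list was a median of 5392 bp away, and 66 peaks had one within 1000 bp. Within 1000 bp, 438 had no other kind of gene. For the rest, the nearest such gene was an ncRNA at 67 peaks, a piRNA at 27, a pseudogene at 20, a lincRNA at 14, a snoRNA at 10 and a miRNA at 6. Antisense RNA genes (2), tRNA genes (2) and an snRNA gene (1) made up the remainder.

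By chromosome, distal intergenic peaks were densest on III, with 109 peaks or 37.2 per Mb of the genome that met the rule, and on I, with 107 or 35.7. Chromosome II had 100 (26.9 per Mb), X 111 (18.8 per Mb), IV 86 (17.3 per Mb) and V 74 (14.8 per Mb). Chromosome X thus had the most distal intergenic peaks but not the highest density. It held 18.9% of them, against 12.5% of the other peaks, 8.15% of promoter peaks and 13.3% of distal intronic peaks, and 23.1% of the length that met the rule. In each replicate's own list the share on X was 21.7%, 18.0% and 17.5% of distal intergenic peaks, against 13.2%, 13.9% and 11.8% of the other peaks. The difference was 6.12 ± 2.25 percentage points (SD, n = 3), with the distal intergenic share higher in 3 of 3 replicates. It was 2.77 points with the distance limit at 250 bp, 9.47 points with no margin around noncoding genes and 12.6 points among the first 1000 peaks of each replicate. The exact sign-flip permutation test, two-sided, gave p = 0.25, the smallest that 3 replicates allow, so this design cannot pass 0.05. The same p held for the other replicate comparisons below unless stated, and it was 0.278 after Benjamini-Hochberg adjustment over 10 comparisons.

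C. elegans autosomes have gene-rich centres and arms with more repeats. The central 50% of the length of the autosomes held 271 of 476 autosomal distal intergenic peaks (56.9%), against 60.0% of the other autosomal peaks and 48.9% of the autosomal length that met the rule. In the replicates' own lists the central share was 56.4% ± 1.30 of distal intergenic peaks and 62.7% ± 2.08 of the others, a difference of -6.36 ± 1.39 points (SD, n = 3), lower in 3 of 3 replicates. With the distance limit at 250 bp this difference was -0.518 points, within the spread between replicates, and over every relaxed peak it was -4.01 points.

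**Figure D3:**
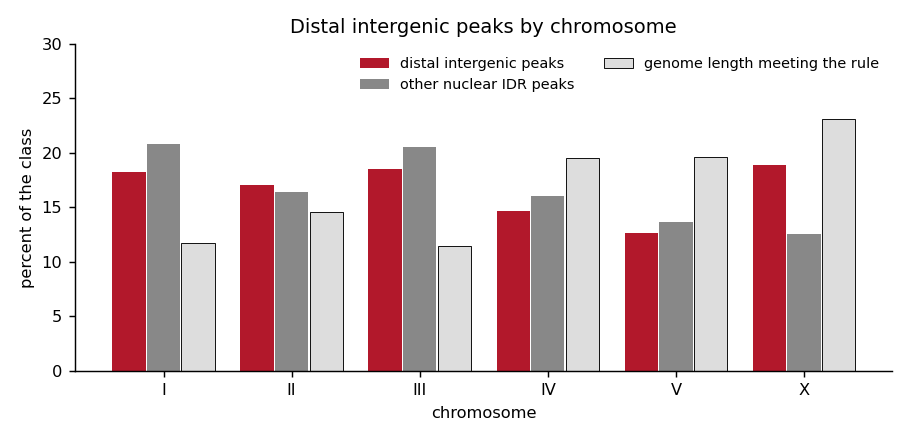
Percent of distal intergenic peaks, of the other nuclear peaks and of the genome length that met the rule on each chromosome. On X the bar of distal intergenic peaks (18.9%) stands above that of the other peaks (12.5%) and below that of the length (23.1%). On I, II and III both kinds of peak stand above the length.

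Repeats of GA were the sequence feature in which distal intergenic peaks stood farthest from promoter peaks. GAGAGA, on either strand within 50 bp of the summit, was found at 194 of 587 distal intergenic peaks (33.0%), against 20.2% of the other nuclear peaks and 22.5% of all nuclear peaks. Promoter peaks had it at 17.7% and distal intronic peaks at 34.3%, so intronic peaks away from gene starts held it about as often as intergenic ones. Windows of the same size 300 bp to the left and right of the distal intergenic summits had it at 7.67% and 7.16%, and 5.15% of the windows laid across the genome that met the rule did. The same letters in the order GGGAAA, added after the GAGAGA shares were seen, were found at 12.9% of distal intergenic summits and 9.95% of the other summits, at 11.2% and 9.20% of their flanks, and at 8.59% of the windows across the genome. Uninterrupted alternations of G and A of 10 or more bases were at 37 distal intergenic summits (6.30%), against 2.09% of the other peaks.

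In the top list of each replicate, the GAGAGA share among distal intergenic summits was 25.2%, 35.8% and 26.5% in replicates 1, 2 and 3. Among promoter summits of the same lists it was 15.6%, 17.6% and 14.2%. Replicate 2 had the highest share in each class, and no distal intergenic value overlapped a promoter value. The difference was 13.4 ± 4.38 points (SD, n = 3; exact permutation p = 0.25). Against all other nuclear peaks it was 11.9 ± 3.39 points, with 2.83 points over every relaxed peak and 18.8 points among the first 1000. Against distal intronic summits, with 20.2%, 32.4% and 26.3%, it was 2.83 ± 2.46 points (exact permutation p = 0.25), and in replicate 3 it was only 0.136 points. When every relaxed peak of a replicate was used in place of its top list, the difference to promoter peaks was 0.960 ± 1.15 points (SD, n = 3). There the exact permutation p was 0.5, and only 2 of 3 replicates had the sign of the mean. With the first 1000 peaks the difference to promoter peaks was 20.3 points.

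GAGAGA matches spread over a wider stretch than the E2F-like letters. In bins of 50 bp, 20.3% and 20.4% of distal intergenic summits had a match on either side of the summit, and 11.6% and 14.8% still had one in the bins that begin or end 150 bp away. In the bins more than 300 bp away the share was 2.73% to 4.26%. Mean GC content was 45.5% in the summit windows of distal intergenic peaks and 46.4% in those of the other peaks, against 34.3% and 34.0% in the flanks of distal intergenic peaks. Soft-masked (repeat) sequence made up 22.0% of the distal intergenic windows, against 38.5% and 39.3% of their flanks, and the part of base composition or repeats in the motif shares was not tested.

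The GAGAGA share differed by place. It was 43.1% on chromosome III, 39.3% on I, 38.4% on IV, 28.0% on II, 25.7% on V and 22.5% on X. Among promoter peaks the share was highest on X, at 29.1%. Among distal intronic peaks it was lowest on X, as among distal intergenic ones, at 18.9%, against 32.7% to 41.9% on the autosomes. In the replicates' own lists the share among distal intergenic peaks was 16.8%, 22.2% and 17.3% on X and 27.6%, 38.8% and 28.4% on the autosomes, lower on X in 3 of 3 replicates. Among promoter peaks it was 28.0%, 29.5% and 21.0% on X and 14.4%, 16.4% and 13.6% on the autosomes, higher on X in 3 of 3. Near 3' ends it was low: 11 of the 81 peaks within 200 bp of a 3' end had the repeat (13.6%), against 40.0% of those at 2000 to 5000 bp. Between convergent genes it was at 7 of 51 peaks (13.7%), against 35.8% between genes on the same strand and 33.2% between divergent genes.

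The E2F-like letters are the kind of sequence that E2F and DP proteins are known to bind. Over all chromosomes together they were less frequent at distal intergenic peaks than at promoter peaks. They were within 50 bp of 69 summits (11.8%), against 15.2% of the other peaks and 14.6% of all nuclear peaks. Promoter peaks had them at 18.1% and distal intronic peaks at 12.8%. On X they were at 16 of 111 distal intergenic summits (14.4%), against 15 of 148 promoter summits (10.1%) and 12 of 53 distal intronic summits (22.6%). By replicate the X shares were 8.80%, 14.8% and 10.2% at distal intergenic summits, against 6.06%, 12.1% and 11.8% at promoter summits, higher in replicates 1 and 2 and lower in replicate 3. At distal intronic summits on X they were 2.63%, 16.4% and 7.94%. The flanks of the distal intergenic summits had them at 4.26% and 4.09%, and windows across the genome that met the rule at 3.48%. The same letters read backwards (CGCNNTT, with C or G at each N) were at 37 summits (6.30%, against 8.68% of the other peaks), at 0.511% and 1.70% of the flanks and at 1.31% of the windows, so the backwards spelling was also more frequent at summits than around them. In proportion to the flanks and windows, its excess at summits was larger than that of the E2F-like letters. Among 7 summits that had both spellings some matches may share bases. In the replicates' own lists the E2F-like share was 9.04%, 11.8% and 11.3% at distal intergenic summits, against 15.0%, 18.2% and 18.5% at promoter summits, a difference of -6.51 ± 0.639 points (SD, n = 3; exact permutation p = 0.25). Over every relaxed peak of the replicates it was -2.35 points. Against distal intronic summits it was 1.13 ± 2.54 points (exact permutation p = 0.5), with unlike signs among the replicates.

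**Figure D4:**
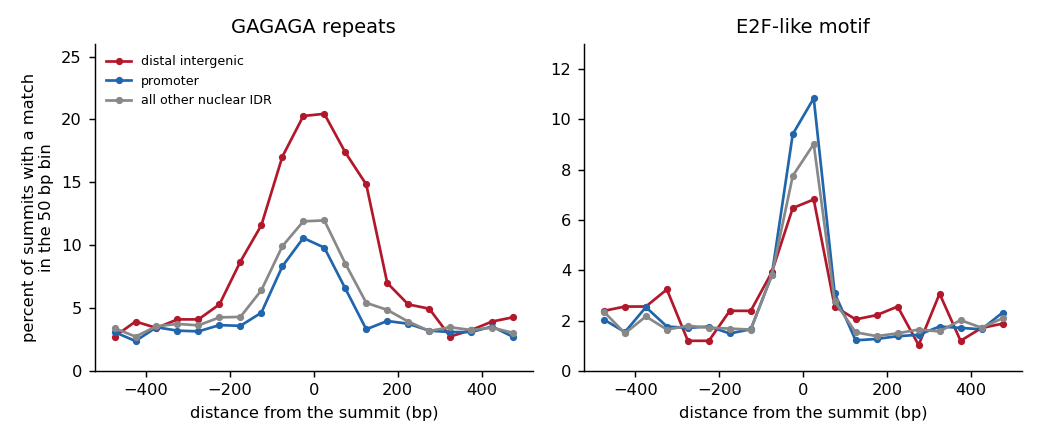
Percent of summits with GAGAGA (left) and with the E2F-like letters (right) in each 50 bp bin, by distance from the summit, for distal intergenic, promoter and all other nuclear peaks. GAGAGA reaches 20.4% next to distal intergenic summits against 10.6% at promoter summits; the E2F-like letters reach 6.81% next to distal intergenic summits and are higher at promoter summits.

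Distal intergenic peaks with the E2F-like letters had the higher median signal and were shared by more replicates than those without, a description with no test. Their median signal was 81.2, against 68.7 without the letters, and 31 of 69 (44.9%) were in the top lists of all 3 replicates, against 28.4%. Over all nuclear peaks this share was 40.8%. The other nuclear peaks showed the same, with median signals of 108.7 with the letters and 83.5 without, and shares of 56.5% and 40.7%. Distal intronic peaks did not differ that way in median signal (64.9 with, 66.9 without). Distal intergenic peaks with GAGAGA had a median signal of 74.5, against 67.8 without, whereas among the other nuclear peaks those with GAGAGA were the weaker ones (81.0, against 88.3 without). Both motifs were at 10 distal intergenic peaks and neither at 334 (56.9%). The hcp-3 window shown above was 1 of the 10 with both.

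The cell cycle homology region letters TTCGAA or TTTGAA, known as a binding element of the DREAM complex, were at 120 summits (20.4%), against 27.6% of the other peaks and 26.3% of all nuclear peaks. Promoter peaks had them at 31.2% of summits, and distal intronic peaks had a still lower share than distal intergenic ones, at 68 of 400 summits. The own lists of replicates 1, 2 and 3 had them at 25.7%, 19.7% and 24.0% of distal intergenic summits, against 26.5% to 27.7% of the other summits, and in replicate 1, with 26.5%, the shares were close to each other. They were more frequent away from the summit, at 32.7% and 38.3% of the flanks and at 36.9% of the windows across the genome that met the rule. At 21 summits these letters and the E2F-like ones were both present. The tRNA B box GTTCGANNC, the promoter element inside tRNA genes, was at 9 summits (1.53%), against 5.55% of the other peaks, and the rule itself keeps summits away from tRNA genes. At 3 of the 9 the window also had a cell cycle homology match, whose TTCGAA the B box can overlap. CTGTTTCA, the motif upstream of piRNA genes, was at 0 distal intergenic summits and at 7 of the other 2683 (0.261%), so it was rare at both. It was at 0.681% and 0.852% of the flanks of distal intergenic summits and at 1.39% of the windows across the genome that met the rule.

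By the gene with the nearest 5' end, 14 gene lists were counted with no test. Chromosome segregation genes were nearest to 3 distal intergenic peaks (0.511%, against 1.53% of the other peaks and 0.340% of all protein-coding genes), and each of the 3 had the E2F-like letters. They were hcp-3, the centromeric histone (669 bp, signal 141, ranks 708, 1201 and 224), hcp-4, the worm's CENP-C (671 bp, signal 120), and the kinetochore gene rod-1 (541 bp, signal 81.2). DNA replication genes had 1 (0.170%, against 0.820% of the other peaks and 0.200% of all genes), rpa-2, a subunit of the single-strand binding protein RPA (721 bp, signal 137, ranks 747, 1559 and 489). The DREAM and synMuv list had 2 (0.341%, against 0.522% of the other peaks and 0.145% of all genes), lin-13 (743 bp upstream, signal 111) and the MuvB gene lin-9. The peak near lin-9 was 280 bp beyond its 3' end and 4174 bp from its 5' end (signal 67.6).

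Ribosomal protein genes were nearest to 4 distal intergenic peaks (0.681%, against 1.71% of the other peaks and 0.406% of all genes), and all 4 lay at the 3' end of the gene. The distance beyond the 3' end was 110 bp at rpl-31, 132 bp at rpl-11.1, 116 bp at rpl-7A and 93 bp at rps-13, with signals of 71.2, 64.1, 49.8 and 46.3. That shared position was noticed after the values were seen. None of the 4 had GAGAGA or the E2F-like letters, and 56.9% of all distal intergenic peaks had neither. Of them only rpl-11.1 was in the top list of all 3 replicates, with ranks of 1992, 2576 and 1062.

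Nuclear hormone receptor genes, a family of transcription factors that is large in worms, had 11 peaks (1.87%, against 0.596% of the other peaks and 1.37% of all protein-coding genes). They lay 585 to 7829 bp from the 5' end and were mostly weak. The strongest was 2503 bp upstream of nhr-88 (signal 129, ranks 1439 and 707 in replicates 1 and 2, none within 100 bp in replicate 3). Only those near nhr-20 (signal 99.2, ranks 2920, 1253 and 1151) and nhr-48 (signal 90.5, ranks 2675, 1617 and 981) were in the top lists of all 3 replicates. Chemoreceptors, the largest gene family counted, with 6.82% of protein-coding genes, had 2 peaks (0.341%, against 0.559% of the other peaks), at srg-64 and sri-5, with signals of 51.0 and 46.8.

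Neuropeptide genes had 3 peaks, 0.511%, which was above the 0.186% of the other peaks and below the 0.701% of all genes. They were at nlp-40 and at the insulin-like genes ins-39 (602 bp, signal 150, ranks 530, 991 and 1121) and ins-13 (945 bp, signal 55.4). F-box genes also had 3 (0.511%), against 0.298% of the other peaks and 1.61% of all genes, the strongest 1016 bp upstream of fbxb-58 on X (signal 188, ranks 157, 670 and 1480). The collagen list had 1, near col-185 (signal 50.8; 0.891% of all genes are on the list), the C-type lectin list 1, near clec-10 (signal 47.6; 1.20% of all genes), and the list of P granule and small RNA genes 1, near the RNA interference helicase gene rde-12 (842 bp, signal 66.3; 0.300% of all genes). Homeobox, proteasome and histone genes had 0, against 8, 25 and 4 of the other peaks; they make up 0.466%, 0.165% and 0.360% of all genes. The counts are small, and a nearest gene is not shown to be regulated from the peak.

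A pair of distal intergenic peaks lay in sequence that occurs several times in the genome. The 101-base summit window of the stronger peak at eel-1 (IV, 3050532 to 3050835) occurs 13 times in ce11, itself included, with no mismatch. That of the peak near Y50D4A.4 (V, 1197278 to 1197581, signal 218, ranks 1483, 321 and 749) occurs 12 times. For each window, 4 of the copies lay within 100 bp of a summit of the peak list. Reads from within such a window cannot be assigned to 1 copy, and the authors' treatment of such reads is not stated in the labels or headers. The windows share a run of 92 bases. No other distal intergenic summit window had a second exact copy.

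Distal intergenic peaks were less often found by single replicates than the other peaks. A peak counted as found when a summit lay within 100 bp among the 3295 strongest peaks of the replicate. Being found and the rank thus both depend on signal, and the peak list was made from these same replicates. The values below are therefore not independent of the lower median signal given above. Replicates 1, 2 and 3 found 299, 467 and 328 of the 587 (50.9%, 79.6% and 55.9%), against 61.3%, 84.6% and 65.2% of the other peaks. Over all nuclear peaks the shares were 59.5%, 83.7% and 63.5%. The difference was -8.27 ± 2.81 points (SD, n = 3), lower in 3 of 3 replicates (exact permutation p = 0.25, adjusted 0.278). It was -4.04 points with the distance limit at 250 bp and -13.3 points among the first 1000 peaks of each replicate. Among all relaxed peaks it was -3.30 ± 3.32 points (exact permutation p = 0.5), and there replicate 2 found 97.3% of distal intergenic and 97.0% of the other peaks. All 3 top lists held 178 distal intergenic peaks (30.3%), against 43.1% of the other peaks and 40.8% of all nuclear peaks. Distal intronic peaks were at 29.0% and promoter peaks at 48.9%. The median rank was 2203, 2035 and 2210.5 for distal intergenic peaks, against 1540, 1583 and 1638 for the other peaks, 562.5 ± 106 places lower in the list (SD, n = 3), and 286 places lower with the distance limit at 250 bp. Peaks with no relaxed peak within 100 bp were left out of these medians. Those with one were 79.7%, 97.3% and 82.8% of distal intergenic peaks and 83.6%, 97.0% and 89.1% of the others.

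Replicate 2 stood apart, since the peak list resembled its top list more than those of replicates 1 and 3. In the top list of only 1 replicate were 184 distal intergenic peaks (31.3%), against 25.1% of all nuclear peaks. Of these 184, 120 were found by replicate 2 alone, 27 by replicate 1 alone and 37 by replicate 3 alone. This split by replicate was not counted for the other nuclear peaks. Another 188 distal intergenic peaks (32.0%, against 29.6% of all nuclear peaks) were in the lists of 2 replicates. In none were 37 (6.30%, against 4.50%). Among peaks with GAGAGA replicate 2 found 89.2%, against 74.8% of those without. For replicate 1 the shares were 54.1% and 49.4%, and for replicate 3 they were 53.1% and 57.3%. When the rule was applied to each replicate's own list, it took 575, 600 and 559 peaks in replicates 1, 2 and 3, or 17.7% ± 0.637 of the nuclear peaks (SD, n = 3), close to the 18.0% of the list made from all of them.

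**Figure D5:**
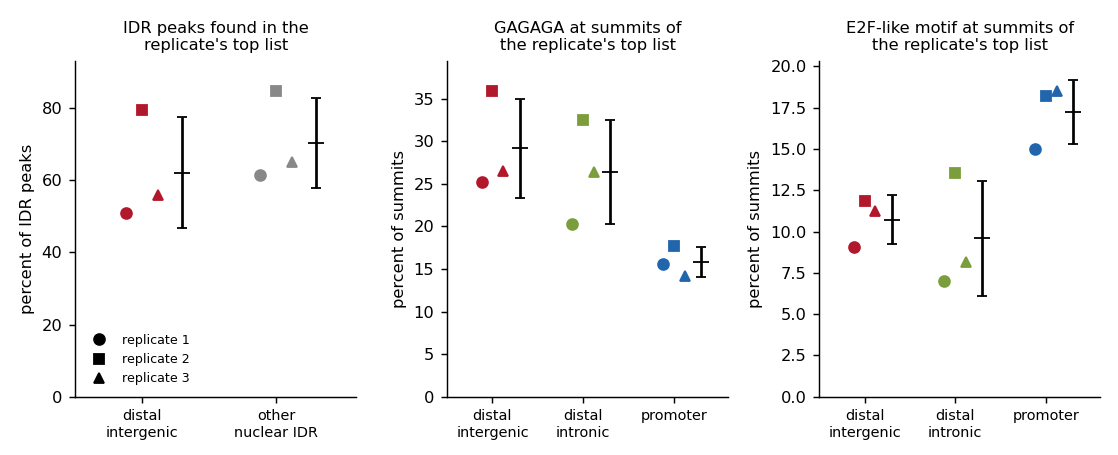
Left, percent of distal intergenic and of other nuclear peaks found in the top list of each replicate; middle and right, percent of distal intergenic, distal intronic and promoter summits in each replicate's own top list with GAGAGA and with the E2F-like letters. Points are replicates, the black bars the mean and SD (n = 3). In every replicate distal intergenic peaks were found less often than the others, had GAGAGA more often than promoter peaks and had the E2F-like letters less often than promoter peaks.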

How the data were processed

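The data were the ce11 peak lists that the authors deposited: 1 relaxed list per replicate (28383, 30000 and 30000 peaks) and 1 list of 3295 peaks kept by the irreproducible discovery rate (IDR) procedure, of which 25 on the mitochondrial chromosome were left out. Their signal column holds the authors' strength of each peak, on a scale that differs between lists, so it was used only to rank and describe peaks within a list. The sources used here do not name the aligner or peak caller, nor how reads that map to several places were treated. The ce10 lists were not used, since the annotation is of ce11. Depth is unknown, so no counting interval is given. Per the labels, the 3 samples are biological replicates; replicate 3 has 1 protocol document, whereas replicates 1 and 2 have separate ones for ChIP and for sequencing. The labels also name a possible control experiment, not analysed here.

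Gene ends were those of the gene records in Ensembl release 115, with 121 symbols from RefSeq, and positions are 1-based. Peaks were matched to replicates by summits within 100 bp. Motifs were searched on both strands within 50 bp of the summit and 300 bp to each side. Replicate differences were tested by exact sign-flip permutation (5 planned and 5 added comparisons), with Python 3.11.15, pandas 2.3.3 and numpy 2.4.6, after the code was tested on simulated data. Peaks were not treated as replicates. The rule for named genes took the 12 strongest distal intergenic peaks, the strongest per chromosome and per gene list, the 3 farthest from a 5' end and the 3 nearest to a 3' end; genes outside it (cbp-1, jhdm-1, affl-2, Y50D4A.4 and further members of the gene lists) were chosen after their values were seen. The members and lists were chosen with earlier results of these data known.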

Additional observations from a re-analysis of the deposited data

How the results depend on the processing

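The number of distal intergenic peaks was 939 with the limit at 250 bp from 5' ends, 403 at 1000 bp, 690 with no margin around noncoding genes and 578 with a margin around every gene that is not protein-coding. It was 212 among the stronger 50% of peaks and 178 among those in all 3 top lists. Asking for the top lists of only 2 replicates gave 197 (without replicate 2) to 272 (without replicate 1). The mean over replicates of each difference against the other nuclear peaks kept its sign under every alternative run, but single replicates did not: over every relaxed peak 2 of 3 replicates had the sign of the mean for the share found and for the E2F-like share, and at 250 bp 2 of 3 had it for the central share and 1 of 3 for the E2F-like share. The smallest means were -0.518 points for the central share and -0.564 points for the E2F-like share at 250 bp, and -0.161 points for the E2F-like share over every relaxed peak. With 1 replicate left out, the difference in the share found was -9.86 to -7.20 points, in median rank 512 to 618 places, in X share 4.92 to 7.15, in central share -7.16 to -5.86, in E2F-like share -3.17 to -2.16 and in GAGAGA share 9.97 to 13.2 points. Against promoter peaks the GAGAGA difference was 11.0 to 15.3 and the E2F-like difference -6.78 to -6.16 points; against distal intronic peaks they were 1.76 to 4.18 and 0.146 to 2.57 points. Over every relaxed peak, only 2 of 3 replicates had the sign of the mean for the GAGAGA difference against promoter peaks. The GAGAGA comparisons and all comparisons with promoter or intronic peaks were added after the data were seen. Every difference was taken within each replicate, and the samples form 1 group, so there was no second group to pair. With 3 replicates no p can pass 0.05.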

Other observations

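Some distal intergenic peaks were close to small RNA genes beyond the 100 bp margin; they were picked out after the values were seen. Near K01F9.2 on chromosome III, 3 peaks lay 229 bp from mir-80 (signal 74.0) and 143 and 197 bp from mir-238 (signals 51.9 and 45.7). Another lay 141 bp from mir-53 (signal 67.2). The peak near ins-13 was 212 bp from sls-2.2, a gene annotated as an snRNA (ranks 2790, 15393 and 1400), and the one near aexr-3 was 111 bp from a tRNA gene (signal 55.4, ranks 2703, 7310 and 782). These 2 peaks ranked far lower in replicate 2 than in replicates 1 and 3. None of these peaks had the E2F-like letters, but only 11.8% of all distal intergenic summits had them. So few peaks do not show a difference.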
